A study of Mus musculus with 4 samples.

Results

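The nuclear genes for the subunits of the mitochondrial respiratory chain and ATP synthase were read on microarrays of liver RNA from mice given aristolochic acid type I (AAI), the plant nephrotoxin of this study. Members were taken by gene name: the Nduf, Sdh, Uqcr, Cox and Atp5 genes of complexes I to V found among the probes of the array, 82 genes of 37021 in all. Complex I had 36 members, complex II 4, complex III 8, complex IV 17 and complex V 17. The assignment follows the name, so that Ndufa4, now known as a subunit of complex IV, was counted with complex I. The signals came from 4 arrays, each with RNA pooled from the livers of 5 wild-type C57BL/6 mice that had been 6 weeks old by the labels. AAI in corn oil was injected i.p. 5 days a week for 3 weeks, at 5 mg/kg/day in females and 2 mg/kg/day in males, with corn oil alone given to the controls of either sex. Since each group had 1 array, neither a replicate error nor a test could be had, and sex and dose cannot be told apart. As tissue check, all 11 hepatocyte genes of the marker list were well above background on every array, and none of them was 2-fold different after AAI in either sex. Markers of other tissues were also above background. The summed linear signal of skeletal muscle genes was 2876 and 65590 in females without and with AAI and 8975 and 514800 in males. The sums of adrenal and of brown fat genes were highest in AAI-treated males, though not every gene of these lists was. Whether the pools held RNA of other tissue was not tested.

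The respiratory chain passes electrons from NADH through complex I and from succinate through complex II to ubiquinone, and on through complex III, cytochrome c and complex IV to oxygen. Complexes I, III and IV pump protons across the inner membrane, and complex V, the ATP synthase, uses their return to make ATP. Liver is rich in mitochondria, and most of these subunits are made in every tissue. For some subunits of complex IV a second gene encodes an isoform for heart and skeletal muscle.

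Signals are given as normalized log2 intensities, and a ratio as the log2 signal after AAI minus that after corn oil within 1 sex. A gene was counted from a 2-fold difference on, a log2 ratio of 1 or more in size, if either of the 2 arrays had its probe well above background. The error of a ratio could be given for the measurement alone: the scanner's error estimates gave a median SE of 0.20 over the members. This SE was the same for most bright members, so that it reflects the scanner's error model more than a spread between spots. Repeated spots of a probe on 1 array differed with a median SD of 0.05 to 0.08 in log2 signal. Over all genes with several probes above background, the ratios of the probes of 1 gene differed with a median SD of 0.25 in females and 0.24 in males. This is the SD between probes used below, and over the members alone it was 0.21 and 0.19. Per array, 74.7% to 81.5% of probes stood well above background, and no spot was saturated.

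In the livers of both sexes nearly all respiratory chain genes differed by less than 2-fold after AAI, and the largest ratios were those of the muscle isoforms Cox8b and Cox6a2 of complex IV in both sexes and of Cox7a1 in males. In females 2 of the 81 members measured were at least 2-fold higher, Cox8b and Cox6a2, against 1.37% of all genes, and 1 was at least 2-fold lower, Cox7b2, against 3.09%. In males 3 of 81 were at least 2-fold higher, Cox6a2, Cox8b and Cox7a1, against 3.51% of all genes, and none was at least 2-fold lower, against 4.59%. The median log2 ratio of the 81 members was -0.01 in females and -0.01 in males, beside 0.04 and 0.02 over all genes above background. The remaining member, Cox8c, a testis isoform, was not well above background on any array.

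**Figure D1:**
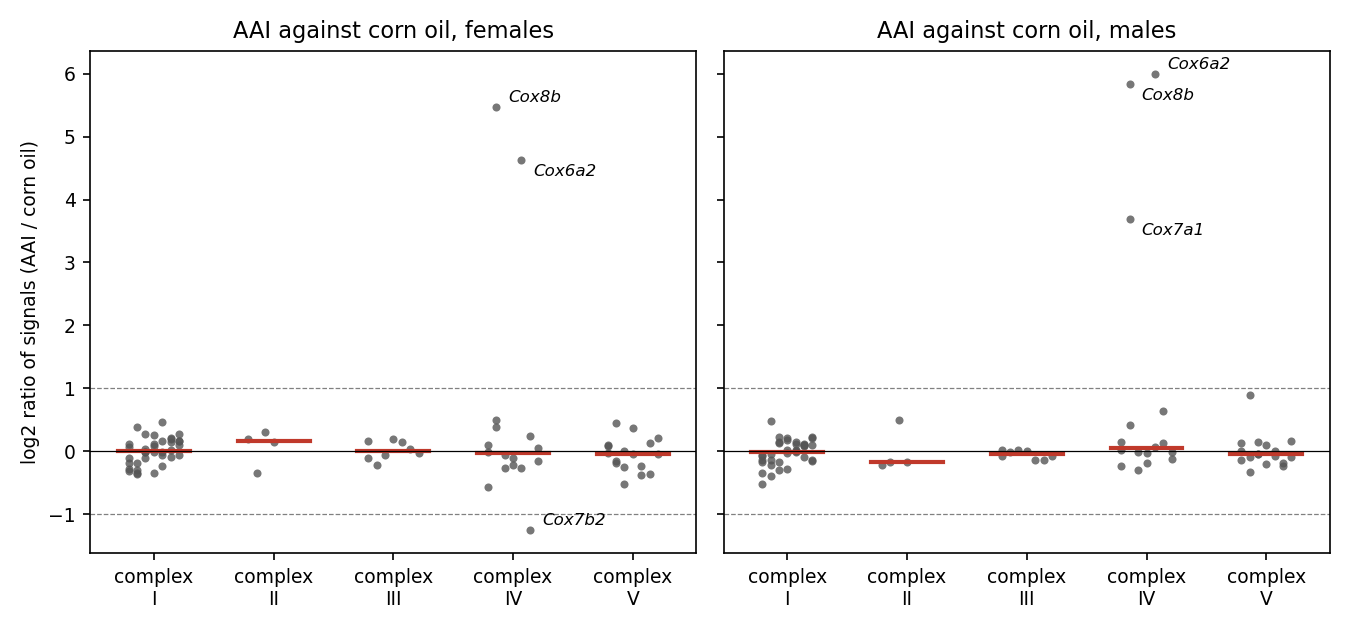
Log2 of the signal after AAI over that after corn oil for each member above background, by complex, in females (left) and males (right). Each point is 1 gene, red lines are medians and dashed lines mark 2-fold, and the points beyond the dashed lines carry their gene names.

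Of the muscle isoforms of complex IV, Cox6a2 and Cox8b stood far from the other members in both sexes and Cox7a1 in males. Cox6a2 encodes the heart and muscle form of subunit VIa. Its probe, on chromosome 7 of mouse genome build mm9 from 135349160 to 135349219, had signals of 7.52 and 12.15 in corn oil- and AAI-treated females and of 9.05 and 15.05 in corn oil- and AAI-treated males. Both AAI-treated pools were thus above both control pools. The log2 ratio was 4.63 (SE 0.21), or 24.8-fold, in females and 6.00 (SE 0.20), or 64.0-fold, in males.

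Cox8b, the heart and muscle form of subunit VIII, showed the same order of the pools. Its probe (chromosome 7, 148084852 to 148084911) had 6.02 after corn oil and 11.49 after AAI in females, and 9.36 after corn oil and 15.19 after AAI in males. The log2 ratio was 5.47 (SE 0.23), or 44.5-fold, in females and 5.84 (SE 0.20), or 57.1-fold, in males. Cox6a2 and Cox8b were also lower in corn oil-treated females than in corn oil-treated males, by differences of -1.53 and -3.34.

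Cox7a1, the heart and muscle form of subunit VIIa, which brown fat also makes, followed another order. Its probe (chromosome 7, 30970337 to 30970948) had 11.55 after corn oil and 11.94 after AAI in females, and 10.58 after corn oil and 14.28 after AAI in males. AAI-treated males stood apart, while the lowest signal was that of corn oil-treated males and not of corn oil-treated females. The log2 ratio was 0.39 (SE 0.20) in females, below 2-fold, and 3.69 (SE 0.20), or 12.9-fold, in males, a difference between the sexes of 3.31. This difference was not tested.

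The widely expressed counterparts had ratios near 0. Cox6a1, the liver form of subunit VIa, had signals of 17.90 and 17.79 in females without and with AAI and of 17.90 and 17.71 in males, with log2 ratios of -0.11 and -0.19. Cox7a2, the liver form of subunit VIIa, had 16.85 and 16.59 in females and 17.07 and 16.77 in males, with log2 ratios of -0.26 and -0.30. Cox8a, the liver form of subunit VIII, had 16.72 and 16.83 in females and 16.72 and 16.75 in males, with log2 ratios of 0.11 and 0.03. The ratios of Cox6a1 and Cox8a lay within the SD between probes in both sexes, and those of Cox7a2 slightly beyond it.

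**Figure D2:**
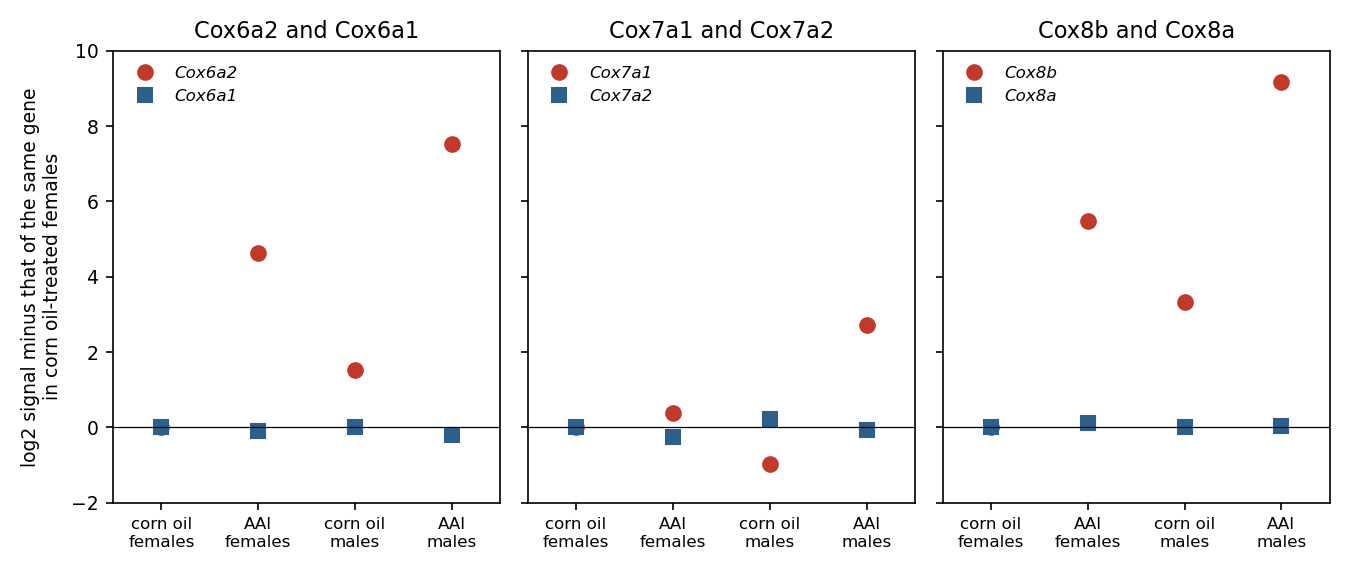
Log2 signal of each muscle isoform (red circles) and its widely expressed counterpart (blue squares) on the 4 arrays, minus the signal of the same gene in corn oil-treated females, which is 0 on the axis. Cox6a2 and Cox8b are higher in both AAI-treated pools, Cox7a1 in AAI-treated males, and the counterparts stay near 0.

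Markers of skeletal muscle moved with these isoforms, and their part in the result was not tested. Of 18 muscle genes (among them Acta1, Ckm, Tnnc2 and Mylpf), 17 were above background in corn oil-treated females and all 18 in the other pools. After AAI, 16 were at least 2-fold higher in females and 17 in males, with median log2 ratios of 4.36 over 17 genes and 5.60 over 18. Their summed signal on the linear scale had the order of the pools that Cox6a2 and Cox8b had. Acta1, the actin of skeletal muscle fibers, had 4.65 and 12.73 in females without and with AAI and 8.80 and 15.60 in males. In bulk RNA, a change in the number of cells of a type and a change in RNA per cell cannot be told apart.

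Other tissues were checked with marker lists in the same way, among them heart and brown fat, which make some of these isoforms. The 7 heart genes had summed signals between 1347 and 1856, with 0 of them 2-fold higher after AAI in females and 2 in males, Myl7 and Tnnt2. The 7 brown fat genes summed to 1357 and 1398 in females without and with AAI and to 1219 and 14480 in males. Ucp1, the uncoupling protein that defines brown fat, was not well above background in either female pool and had 4.98 in males without and 12.89 with AAI. Zic1 of the same list was not above background on any array, and 4 brown fat genes were at least 2-fold higher in males and 0 in females. The sum of the brown fat markers was thus highest in the same pool as Cox7a1, as were those of the skeletal muscle, fat and adrenal lists. The part of any of these tissues in its value was not tested.

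The other lists gave background for the same pool. The 7 general fat genes had summed signals of 4990 and 6154 in females without and with AAI and of 9014 and 81380 in males, with 3 genes at least 2-fold higher in females and 5 in males. The 7 adrenal cortex genes had 1028, 1021, 4262 and 46730 in the same order, and the 6 adrenal medulla genes 3374, 3393, 4150 and 18350. None of these 13 genes was 2-fold different in females, while 5 cortex and 3 medulla genes were at least 2-fold higher in males and 1 cortex gene, Mc2r, was lower. The lists of kidney, between 1896 and 2748, and testis, between 1352 and 1490, held no gene past 2-fold. Hepatocyte genes summed to between 2110000 and 2238000 in all pools. The brightest genes, such as Alb at 19.12 to 19.15, weigh most in this sum. Quantile normalization makes the brightest signals alike on all arrays, so the sum cannot show whether the share of hepatocyte RNA changed. Single genes differed more, such as Apob with a log2 ratio of -0.94 in males and Cps1 with 0.75 in females.

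**Figure D3:**
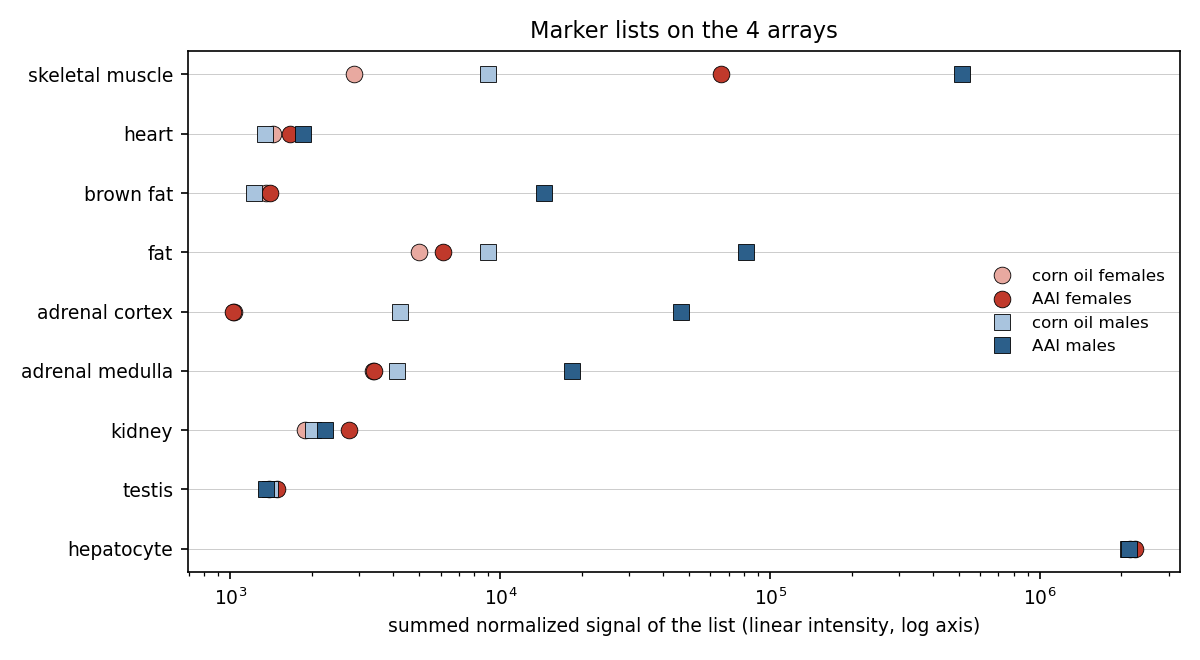
Summed normalized signal of each marker list (linear intensity, log axis) on the arrays of females (circles) and males (squares), pale after corn oil and dark after AAI. The skeletal muscle list spans 2876 to 514800, and the brown fat, fat and adrenal lists are highest in AAI-treated males.

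The promoters of the isoforms are shown so that muscle isoforms can be compared with their widely expressed counterparts. The sequences are the 250 bases before the start of each gene in RefSeq, on the strand of the gene in build GRCm38.p6, and Cox6a2 is named only. Capitals mark matches, on either strand, to the E-box (CANNTG), which muscle factors of the MyoD family bind, to the NRF1 motif (GCGCA and GCGC with 1 base of any kind between them) and to the ETS motif (CCGGAAG), which nuclear factors of respiratory genes bind. Cox7a1 lies on the plus strand at chr7:30183921-30184170, Cox8b on the minus strand at chr7:140900447-140900696, Cox6a1 on the minus strand at chr5:115348959-115349208, Cox7a2 on the minus strand at chr9:79759854-79760103, and Cox8a on the minus strand at chr19:7217617-7217866.
Cox7a1: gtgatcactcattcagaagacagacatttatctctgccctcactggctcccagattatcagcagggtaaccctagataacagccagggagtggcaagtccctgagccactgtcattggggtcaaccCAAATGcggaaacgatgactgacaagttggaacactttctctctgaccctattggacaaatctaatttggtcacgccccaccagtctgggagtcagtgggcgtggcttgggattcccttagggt
Cox8b: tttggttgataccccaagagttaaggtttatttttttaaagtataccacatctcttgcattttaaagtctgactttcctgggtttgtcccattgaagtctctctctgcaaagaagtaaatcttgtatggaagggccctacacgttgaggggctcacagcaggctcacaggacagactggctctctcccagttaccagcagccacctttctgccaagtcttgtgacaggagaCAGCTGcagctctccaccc
Cox6a1: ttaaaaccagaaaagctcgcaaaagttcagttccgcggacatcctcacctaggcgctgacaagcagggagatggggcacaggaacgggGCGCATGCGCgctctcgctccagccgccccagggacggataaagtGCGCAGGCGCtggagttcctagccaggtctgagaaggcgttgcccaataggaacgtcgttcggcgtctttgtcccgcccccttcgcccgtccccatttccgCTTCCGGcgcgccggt
Cox7a2: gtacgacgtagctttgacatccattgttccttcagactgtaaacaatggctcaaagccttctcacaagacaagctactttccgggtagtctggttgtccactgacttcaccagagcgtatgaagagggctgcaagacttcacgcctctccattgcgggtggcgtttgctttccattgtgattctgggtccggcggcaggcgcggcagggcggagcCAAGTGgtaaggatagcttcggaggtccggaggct
Cox8a: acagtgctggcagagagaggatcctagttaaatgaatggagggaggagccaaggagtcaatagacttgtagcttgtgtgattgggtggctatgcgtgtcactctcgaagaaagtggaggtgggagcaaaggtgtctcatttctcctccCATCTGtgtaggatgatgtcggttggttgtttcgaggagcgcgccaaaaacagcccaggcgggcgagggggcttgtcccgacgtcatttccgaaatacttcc

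The windows of Cox7a1 and Cox8b each held 1 E-box and no NRF1 or ETS match, as did those of Cox7a2 and Cox8a. The window of Cox6a1 held 2 NRF1 matches, 1 ETS match and no E-box. No window held a match to the MEF2 motif or to a TATA box (TATAAA). The dinucleotide CG occurred 4 times for Cox7a1 and 1 time for Cox8b, against 26, 14 and 11 times for Cox6a1, Cox7a2 and Cox8a. Promoters were found for 68 of the 82 members, with a median of 14 CG dinucleotides, against 6 over the promoters of 27025 genes. Of these 68 members 3 had 4 or fewer, Cox7a1, Cox8b and Ndufc2, as did 44.5% of all promoters. The NRF1 motif was in the window of 12 members (17.6%) and of 3.9% of all genes, and the ETS motif in 11 members (16.2%) and 7.1% of all genes. The E-box was in 43 members (63.2%) and 66.0% of all genes, the TATA box in 6 (8.8%) and 13.0%, and the MEF2 motif in 0 and 3.0%. These matches describe the sequence in the window and no binding.

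The other tissue-restricted isoforms of complex IV did not share the pattern. Cox4i2, a form of subunit IV made in lung, had 10.13 and 10.63 in females without and with AAI and 9.97 and 10.39 in males, with log2 ratios of 0.50 and 0.42. Cox6b2, a testis form of subunit VIb, had 8.87 and 8.92 in females and 9.05 and 8.93 in males, with log2 ratios of 0.05 and -0.11. Cox7b2, a testis form of subunit VIIb, was read at a low signal, 5.89 and 4.63 in females and 5.62 and 6.27 in males. Its log2 ratio was -1.25 (SE 0.30) in females and 0.65 (SE 0.26) in males, and with normexp background correction it was -0.38 and 0.26, both below 2-fold.

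For the widely expressed members the differences were small throughout. Leaving out the 7 tissue-restricted isoforms of complex IV and Atp5s, Atp5sl and Cox7a2l, which are not subunits of a mature complex in the strict sense, 72 members remained. Of these, 33 were higher and 39 lower after AAI in females, with log2 ratios from -0.57 to 0.47 and a median of -0.01. In males 30 were higher and 41 lower, with 1 equal, from -0.51 to 0.50 with a median of -0.03. None reached 2-fold in either sex. When arrays were scaled to their 75th percentiles instead of quantile normalized, the split in males was 59 higher and 13 lower with a median of 0.18, so that no direction can be given for this set in males. The male medians of complexes I to V were then 0.19, 0.10, 0.13, 0.27 and 0.19. Those of complexes I, II, III and V thus have no settled direction either. With quantile normalization, that of complex IV was -0.00 over its widely expressed members, so that it has none either. In females the split was 38 higher and 34 lower with normexp, with a median of 0.01, so no direction can be given there. Over the alternatives the female medians of complexes I, III, IV and V took either sign, while that of complex II stayed positive. Ratios beyond the SD between probes were found for 19 of the 72 in females (26.4%, against 54.1% of all genes) and 9 in males (12.5%, against 54.9%). Most of these members had bright probes, while all genes include many dim ones, and shares at matched signal were not compared.

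Complex I, the NADH dehydrogenase, had medians of 0.01 in females and -0.00 in males over the log2 ratios of its 36 members. In either sex 18 members were higher and 18 lower, and none reached 2-fold. In females the highest member was Ndufs1, the large iron-sulfur subunit, with 13.48 without and 13.96 with AAI, a log2 ratio of 0.47, and the ratio was -0.01 in males (13.82 and 13.81). A further probe of Ndufs1, dim at 5.36 and 4.44 in females, gave -0.93. The lowest in females was Ndufb9, an accessory subunit, with 16.81 and 16.45, a log2 ratio of -0.36, and -0.05 in males.

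In males the extremes of complex I were the accessory subunits Ndufa10 and Ndufa1. Ndufa10 had 13.34 without and 13.83 with AAI in males, a log2 ratio of 0.49, and 13.84 and 14.22 in females, a log2 ratio of 0.38. Ndufa1 had 16.41 and 15.90 in males, a log2 ratio of -0.51, and 16.00 and 15.72 in females, a log2 ratio of -0.28. Each of these ratios had the same sign in both sexes and was larger than the SD between probes. For Ndufa10 a further probe gave 0.40 in females and 0.38 in males, while a dim one gave -0.31 and -0.13. With the mean of all probes Ndufa10 was at 0.16 in females, within that SD, and at 0.25 in males. For Ndufa13 the brightest probe gave -0.24 in females and 0.01 in males, while a dim further probe gave -0.31 and 1.06, with 6.30 and 7.36 in males.

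Complex II, the succinate dehydrogenase, is the smallest of the complexes and is encoded wholly in the nucleus. Sdha, its flavoprotein, had 13.72 and 13.91 in females without and with AAI and 13.85 and 13.63 in males, with log2 ratios of 0.19 and -0.21. Sdhb, its iron-sulfur subunit, had 16.11 and 15.77 in females and 16.16 and 15.99 in males, with log2 ratios of -0.34 and -0.17. A further probe of Sdhb gave -0.04 in females and 0.15 in males. The further probes of Sdha, all dimmer, gave from -0.41 to 0.37 in females and from 0.02 to 0.36 in males. The membrane anchors came next. Sdhc had 13.62 and 13.93 in females and 13.32 and 13.81 in males, with log2 ratios of 0.31 and 0.50, and Sdhd had 15.36 and 15.51 in females and 15.32 and 15.14 in males, with log2 ratios of 0.15 and -0.17. The ratios of these 4 subunits thus differed in sign. The median was 0.17 in females and -0.17 in males.

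Complex III, which passes electrons from ubiquinol to cytochrome c, had the narrowest range. Its 8 members lay between -0.21 and 0.19 in females, with a median of 0.01, and between -0.14 and 0.03 in males, with a median of -0.04. Uqcrc1, a core protein, was highest in females with 14.09 and 14.28, a log2 ratio of 0.19, and Uqcr11, a small subunit, was lowest with 16.94 and 16.73, a log2 ratio of -0.21. In males Uqcrb was highest with 16.57 and 16.60, and Uqcrfs1, the Rieske iron-sulfur protein, lowest with 15.13 and 14.99. All of these lay within the SD between probes.

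Complex IV, the cytochrome c oxidase, had medians of -0.03 in females and 0.05 in males over the 16 members above background. Without the tissue-restricted isoforms and Cox7a2l, its 9 widely expressed members had medians of -0.11 and -0.00, with 7 of 9 lower in females and 5 of 9 in males. Cox6c, a small subunit singled out after its values were seen, had the lowest ratio among the 72 members in females, with 17.56 and 16.99, a log2 ratio of -0.57, and -0.22 in males (17.70 and 17.48).

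Complex V, the ATP synthase, had a median log2 ratio of -0.04 in each sex, over 17 members. The 5 subunits of its catalytic F1 part had medians of -0.02 and -0.04, the 3 genes for the c-ring, through which protons pass, 0.09 and 0.14, and the 4 peripheral stalk subunits 0.02 and -0.11. Genes of this group that encode no subunit of the enzyme gave the highest ratio in each sex and the lowest in females. Atp5s, a coupling factor known under the symbol Dmac2l, was highest in either sex. Its signals were 7.69 and 8.15 in females and 7.76 and 8.67 in males, and its log2 ratios 0.46 and 0.90. Atp5sl, now named Dmac2, an assembly factor of complex I, was lowest in females with 12.04 and 11.53, a log2 ratio of -0.52, and had 11.65 and 11.80 in males, a log2 ratio of 0.14. Its further probe gave 0.13 in females, and in AAI-treated males the processed signal of that spot was the background value, so that no level can be given. In males the lowest of all 17 was Atp5g3, a c-ring gene, with 16.79 and 16.46, a log2 ratio of -0.33. Atp5j, a stalk subunit, gave -0.04 in females with its brightest probe and -1.42 with a dim probe, whose signals were 7.62 and 6.20.

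The ratios of the sexes were set side by side, since they share no array. Of the 72 widely expressed members, 21 were higher after AAI in both sexes, 29 lower in both and 21 opposite, and 50 lay within the SD between probes in both. Beyond that SD and lower in both sexes were 4 genes, Cox7a2, Ndufa1, Ndufa4 and Ndufb4, and higher in both were 2, Ndufa10 and Sdhc, of which Ndufa4 and Ndufb4 were singled out after their values were seen. With 75th percentile scaling these ratios kept their signs. In males Ndufa1 was then at -0.24, and Cox7a2, Ndufa4 and Ndufb4, at -0.11, -0.12 and -0.05, were within the SD between probes. In females Cox7a2, Ndufa4 and Sdhc, at -0.23, -0.24 and 0.25, were then also within it. With the mean of all probes Ndufa10 was within it in females, at 0.16. Ndufa4 had 16.43 and 16.13 in females and 16.76 and 16.42 in males, and Ndufb4 had 16.42 and 16.08 in females and 16.53 and 16.25 in males. Across these 72 genes the ratios of the sexes had Pearson's r of 0.59 and Spearman's rho of 0.57, beside 0.32 and 0.23 over the 28234 genes above background on all arrays. Genes are not independent replicates, and the values share the probes, the slide and the normalization. In both sexes the ratios of these members were also lower at brighter mean signal, as given below, and all genes include many dim ones. The coefficients of the members and of all genes are therefore not directly comparable.

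**Figure D4:**
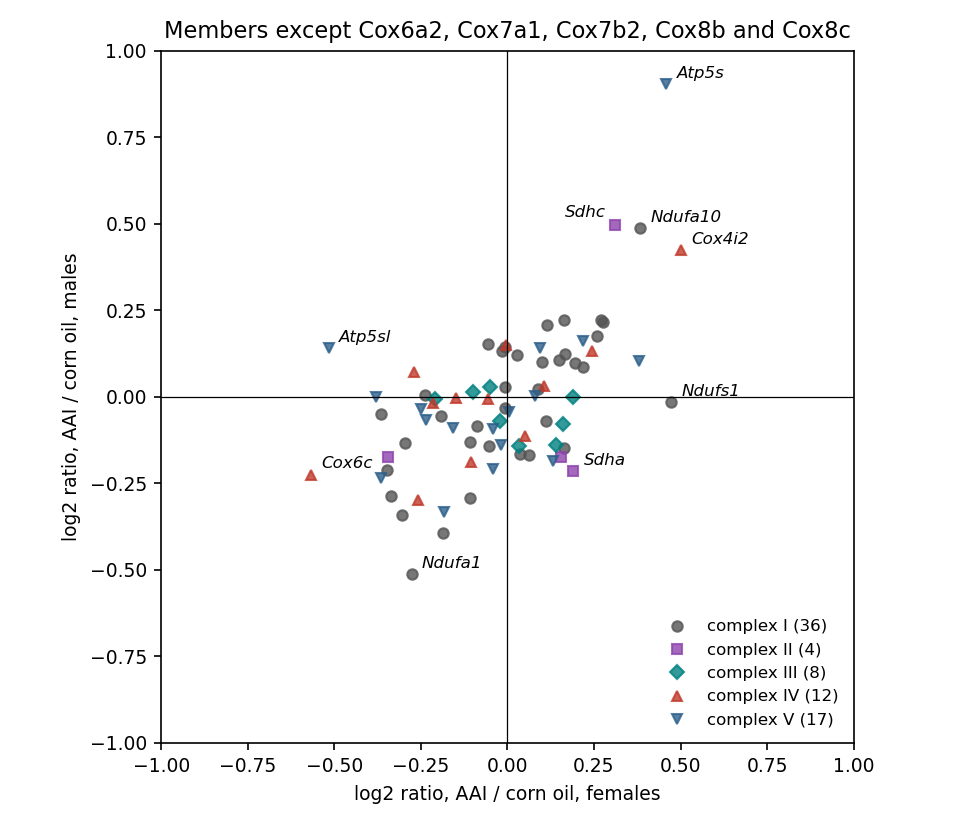
Log2 of the signal after AAI over that after corn oil, females on the horizontal and males on the vertical axis, for 77 members, coloured and shaped by complex, without Cox6a2, Cox7a1, Cox7b2, Cox8b and Cox8c. All points lie within 1 log2 unit of 0 on both axes, and Atp5s is the highest in males.

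Between the sexes without AAI the members also differed little. In corn oil-treated mice 41 members were higher and 39 lower in females than in males, with a median difference of 0.00, beside 0.02 over all genes. Of 81 members measured, 2 were at least 2-fold lower in females, Cox6a2 and Cox8b, against 3.83% of all genes, and 0 were at least 2-fold higher, against 1.86%. Cox7a1 came next to that limit with 0.97 higher in females.

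The other genes of the pathway, from lists that do not overlap the members, were given beside them. Of 13 subunits encoded by mitochondrial DNA, 11 had probes, with median log2 ratios of -0.15 in females and -0.10 in males. One of them, ND6, a complex I subunit on the other strand of the mitochondrial genome, was 2-fold lower in females, with 8.86 and 7.84, a log2 ratio of -1.03, and had 8.30 and 8.35 in males. It was below 2-fold with 75th percentile scaling, at -0.99, and with normexp, at -0.86. The 7 nuclear genes outside the name rule, such as those for cytochrome c, had medians of -0.00 and 0.00. Among them Ndufa4l2, a relative of Ndufa4 known as a hypoxia target, had 7.66 and 8.76 in males, a log2 ratio of 1.11 that was -0.36 as the mean of its probes.

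The assembly factors, 44 of 45 with probes, had medians of 0.03 and 0.02 and 0 genes past 2-fold other than Ndufaf3 in females. The corn oil-treated female spot of Ndufaf3, an assembly factor of complex I, was among those set to the background value, so that its log2 ratio of 4.65 is no measurement. Regulators of mitochondrial biogenesis were listed under 14 symbols, of which Peo1 and Twnk name the same gene. Probes were found for 13 of the symbols, with medians of 0.07 and -0.02. Ppargc1a, the coactivator PGC-1α, had 9.96 and 9.06 in females, a log2 ratio of -0.90, and 8.33 and 9.61 in males, a log2 ratio of 1.29. The sums of the skeletal muscle and brown fat markers were highest in the same AAI-treated male pool. Skeletal muscle markers were also higher after AAI in females, where Ppargc1a was lower. The part of these tissues in the values of Ppargc1a was not tested. Pprc1, a related coactivator, had 9.0 and 7.70 in females, a log2 ratio of -1.29, and 8.88 and 8.55 in males, a log2 ratio of -0.33, and as the mean of its probes -0.34 and 0.58.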

How the data were processed

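Liver RNA of 5 mice per group was pooled, labeled with Cy3 and hybridized to 1 SurePrint G3 mouse array per group, all on 1 slide. The authors used Feature Extraction 10.5.1.1 to quantify spots, and deposited the intensity of every spot, raw, background-subtracted and processed, with error estimates and quality marks, not normalized between arrays. On the array of AAI-treated females the processed intensity equalled the background-subtracted one within 1% on 93.7% of spots, against 6.7% to 13.3% on the others, so that the multiplicative trend correction differed between arrays. The deposited table of the series also holds their quantile normalized intensity, an alternative here. Probes are annotated on mm9. Groups came from the labels.

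Control spots and spots marked as outliers were left out, spots of a probe averaged, log2 of the processed intensity taken and quantile normalized over the 4 arrays for 56495 of 56605 probes. Genes go by the names in the files, each shown by its brightest probe. The 82 members had 126 probes, and 34 members had 2 or more. Where a probe was not well above background on 1 of the 2 arrays, its ratio was a lower bound. Precision is limited by the number of arrays. On 26 spots of corn oil-treated females and 92 of AAI-treated males the processed intensity equals the background value within 1%. Python 3.11.15, pandas 2.3.3, R 4.3.3 and limma 3.58.1 (normexp, offset 50) were used, and the steps were tested on simulated data.

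The members and gene lists were chosen with earlier results of these data known. Named genes are members past 2-fold, the isoform pairs, the highest and lowest of each complex in each sex, all of complex II, members with a spot at the background value or with probes that differed by more than 1, and genes of the other pathway lists past 2-fold; of the marker lists a few are named. The alternatives were 75th percentile scaling, normexp, no trend correction, the authors' normalized intensity, the mean of all probes, leaving out replaced spots, centring on all genes, no filter on dim probes, 1.5-fold and 3-fold thresholds, and a narrower set of members. Where a gene had several promoter entries, the first was used.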

Additional observations from a re-analysis of the deposited data

Results flagged for a closer look

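Cox7b2, a testis isoform of subunit VIIb of complex IV, had ratios of opposite sign in the sexes, each larger than the SD between probes. The log2 ratio after AAI was -1.25 in females and 0.65 in males. The difference between the sexes was not tested, since there was 1 array per group, and sex and dose cannot be told apart. The signals, between 4.63 and 6.27, were among the lowest of the members above background.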

How the results depend on the processing

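Of 190 values of the counts, medians and muscle isoform ratios under 11 alternatives, 182 stayed within the spread between probes or within 1.5 times the count. With normexp background correction, the log2 ratio of Cox6a2 was 4.02 in females and 5.67 in males and that of Cox8b 4.39 in females, and 0 members were 2-fold lower in females. A 3-fold threshold also left 0 lower in females, and a 1.5-fold threshold gave 5 higher in males, as it adds weaker changes by construction. With the mean of all probes 1 member was 2-fold lower in males, Atp5sl, at -1.70, because of its spot at the background value. With 75th percentile scaling the medians in males turned from negative to 0.19 for complex I, 0.10 for complex II, 0.13 for complex III and 0.19 for complex V, that of complex IV was 0.27, and the cause was not tested. Among single genes, 3 values reversed: Ndufa4l2 in males at -0.36 with the mean of all probes, and Ndufaf3 in females at -1.67 without the trend correction and -1.60 with normexp, where the value set to background does not enter. Of the other values of single genes, 413 stayed within the spread between probes and 16 moved beyond it. The median of all genes moved by less than 0.1 under each scaling.

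No paired analysis was possible because there was 1 array per group; for the same reason no array could be left out, and all arrays lay on 1 slide. Dim probes are limited by background: the SE of Cox8c was 2.05 in females, against 0.20 for most members.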

Other observations

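Across the 72 widely expressed members the ratio was related to the mean signal over the 4 arrays, with brighter members lower after AAI. Pearson's r was -0.63 and Spearman's rho -0.66 in females, and -0.41 and -0.34 in males. These are correlations across genes of the same arrays, which share the normalization and are not independent replicates, and the array of AAI-treated females differed from the others in its trend correction. The part of the signal scale in this relation was not tested.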
